A study of Homo sapiens with 9 samples.

Results

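The RNA of the nucleus was compared with that of the cytoplasm within cells depleted of WTAP and KIAA1429 (gene symbol VIRMA), both subunits of the complex that places N6-methyladenosine (m6A) on mRNA. The samples were taken by their labels alone: 3 RNAi nuclear libraries (replicates 1 to 3) and 2 RNAi cytoplasmic libraries (replicates 1 and 2), which are 5 of the 9 libraries analysed. The other 4 came from cells given a control siRNA (3 nuclear, 1 cytoplasmic) and are used here only to set the nuclear/cytoplasmic ratio of each gene beside that of unperturbed cells. The cells were HEK293 by their labels, a human embryonic kidney line. The RNAi cells received both siRNAs together, and the labels do not say whether replicates were separate cultures, so p-values measure the spread between these libraries. Both fractions came from cells given the same siRNAs, so a ratio between them describes where RNA sat in depleted cells. It is no measure of the depletion itself, but the ratios of WTAP and VIRMA also hold any unequal loss of their mRNA between fractions.

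A messenger RNA is made and spliced in the nucleus, bound by the export machinery and released through nuclear pores to be translated. Many long non-coding RNAs (lncRNAs), small nuclear and nucleolar RNAs and transcripts that still hold an intron stay in the nucleus, whereas mature mRNAs of housekeeping proteins collect on cytoplasmic ribosomes. Rough endoplasmic reticulum is continuous with the nuclear envelope, and its ribosome-bound mRNAs can sediment with nuclei in a fractionation.

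The 5 RNAi libraries held 11627403 to 16681021 estimated counts, and 84.5% to 88.3% of these were matched to annotated genes. WTAP, the subunit that holds the complex in nuclear speckles, was at 12.2, 14.3 and 15.5 CPM (counts scaled to the effective library size by TMM) in the RNAi nuclear libraries and at 10.8 and 11.9 in the RNAi cytoplasmic ones. In control cells it was at 24.2, 27.7 and 23.1 in the nucleus and 37.5 in the cytoplasm, above every RNAi library. VIRMA was at 9.17, 5.55 and 6.96 CPM in RNAi nuclei and 4.19 and 4.04 in RNAi cytoplasm, against 13.6, 13.2 and 19.9 in control nuclei and 17.4 in control cytoplasm. In nuclei the log2 change from control was -0.84 for WTAP (edgeR quasi-likelihood test, Benjamini-Hochberg FDR 0.0166) and -1.09 for VIRMA (FDR 0.0308). In cytoplasm, with 1 control library, the estimated change was larger, at -1.73 for WTAP and -2.08 for VIRMA. Both targets were lower in every RNAi library than in any control library. Of the kidney-line markers, VIM, KRT18, KRT8, PAX2 and NEFM were all present in the RNAi libraries, from 2.78 TPM (transcript abundance per length, scaled within each library) for PAX2 to 1838.4 for VIM. The markers PTPRC, CD3E and CD14 of blood, CDH5 and VWF of endothelium, ALB and APOA1 of liver, DES and MYH7 of muscle and KRT5, KRT14 and KRT17 of squamous epithelium stayed at or under 1.75 TPM. Mitochondrially encoded RNA took 28.3%, 19.5% and 22.5% of the matched counts in the nuclear libraries and 14.8% and 19.8% in the cytoplasmic ones, so it was not depleted from the nuclear fraction.

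Libraries of one fraction were closer to each other than to the other fraction. Log2 CPM correlated across genes at 0.982 between the 2 cytoplasmic libraries, at 0.981 to 0.987 between nuclear libraries and at 0.916 to 0.924 between fractions. The test covered 15974 genes, each of which reached 10 estimated counts in 2 or more of the 5 libraries, and 5327 (33.3%) were higher in the nuclear and 4013 (25.1%) in the cytoplasmic fraction, at a log2 fold change beyond 0.5 and an FDR under 0.1. The CPM ranges of the fractions did not overlap for 12270 genes, or 76.8%. The median log2 nuclear/cytoplasmic ratio of all genes was 0.03. Scaling by library size alone moved that median to 0.30 and the calls to 6442 nuclear and 2088 cytoplasmic. No RNA of known amount was added, so every ratio is relative to the other RNA of the same libraries, and more RNA per cell and more cells in a fraction cannot be told apart.

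RNA classes separated by fraction, as the plot of ratios by class shows. Protein-coding genes were spread around equality, with a median log2 ratio of -0.11 over 13329 genes, 3599 higher in the nucleus and 3816 in the cytoplasm. With library-size scaling alone that median became 0.16, so its sign depended on the scaling. The 2062 lncRNA genes had a median of 1.42, with 1316 higher in the nucleus and 165 in the cytoplasm. They made up 3.0%, 2.9% and 2.8% of matched counts in the nuclear libraries and 0.9% and 0.8% in the cytoplasmic libraries. Of the small RNA genes, 16 of 18 snoRNA, 13 of 16 miRNA and 15 of 18 misc_RNA genes were called higher in the nucleus and none in the cytoplasm, but 16, 14 and 16 of them had under 10 counts in both cytoplasmic libraries. Processed pseudogenes, intronless copies of mRNAs, had a median of 2.51 over 183 genes.

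Part of these medians rests on genes read almost only in nuclei. Of the lncRNA genes tested, 927 (45.0%) had under 10 counts in both cytoplasmic libraries, as did 122 (66.7%) of the processed pseudogenes and 943 (7.07%) of the protein-coding genes. Such genes, and the small RNA genes above, passed the filter through the nuclear libraries alone, and a high ratio was then fixed by the filter. Among the 812 lncRNA genes with at least 10 counts in all 5 libraries the median was 0.23, with 313 higher in the nucleus and 141 in the cytoplasm. The 11524 protein-coding genes with that depth had a median of -0.22, with 2412 and 3769. The lncRNA median thus exceeded the protein-coding one by 1.53 under the wider filter, and by 0.45 when the fit was restricted to genes counted in every library.

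**Figure D1:**
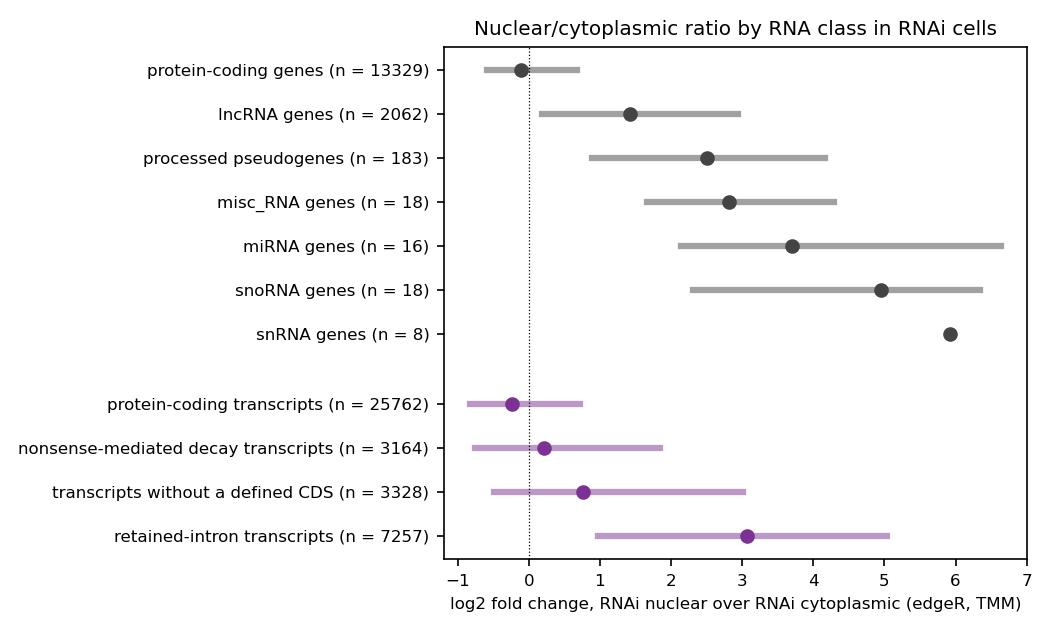
Log2 ratio of RNAi nuclear over RNAi cytoplasmic libraries for gene classes (grey) and transcript types (purple); points are medians over the n genes or transcripts tested and bars span the quartiles. Protein-coding genes sit at -0.11, lncRNA genes at 1.42 and retained-intron transcripts at 3.06; many of the far-right members had few cytoplasmic counts.

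Known nuclear lncRNAs were strongly nuclear. Of 10 tested from a list of such RNAs, 8 (80.0%, beside 33.3% of all genes) were higher in the nucleus and none in the cytoplasm. Their median log2 ratio was 1.74. MALAT1, an RNA of nuclear speckles, was at 163.2, 157.8 and 162.1 CPM in nuclei and 6.44 and 5.46 in cytoplasm, a log2 ratio of 4.75 (SE 0.34, FDR 3.67e-06). NEAT1, the scaffold of paraspeckles, was at 180.1, 210.5 and 186.3 CPM in nuclei against 9.92 and 10.9. For both, each nuclear library was more than 10 times each cytoplasmic one. KCNQ1OT1, an imprinted RNA that acts on chromatin, had a log2 ratio of 3.71 (SE 0.20) and TUG1 one of 1.55 (SE 0.15). HOTAIRM1, transcribed in the HOXA cluster and the member with the highest mean TPM, ran from 25.5 to 26.8 CPM in nuclei and was at 29.5 and 38.6 in cytoplasm, a log2 ratio of -0.37 that did not pass the fold threshold (FDR 0.0949), and -0.56 without RNAi cytoplasmic replicate 1, which passes it. TUG1, NEAT1 and the other list members named as examples beside the rule were chosen after their values were seen.

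lncRNA genes that host snoRNAs in their introns were mixed. Of 29 tested, 13 (44.8%, beside 33.3% of all genes) were higher in the nucleus and 4 (13.8%, beside 25.1%) in the cytoplasm. The 29 include SNORD3A, a snoRNA gene rather than a host, which was among the nuclear calls. GAS5 was at 44.8, 36.9 and 42.6 CPM in nuclei and 12.1 in both cytoplasmic libraries, a log2 ratio of 1.78 (SE 0.21). SNHG1 was at 128.0, 120.5 and 124.4 against 36.5 and 29.9. SNHG16, the host with the highest TPM, went the other way, at 605.3, 604.7 and 627.7 CPM in nuclei and 1489.5 and 1584.6 in cytoplasm (log2 ratio -1.33, SE 0.09, FDR 2.15e-06). Within each host all 3 nuclear libraries stood on one side of both cytoplasmic ones. SNHG14, the long host at the Prader-Willi locus, had 57 counts in nuclei and 1 in cytoplasm, a ratio of 32.3 with an exact 95% counting interval of 5.56 to 1296.4.

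Non-coding genes at the far nuclear end had no counts in either cytoplasmic library. ENSG00000290690, a lncRNA at chr15:84953014-84966399 (GRCh37), was at 11.7, 10.2 and 10.2 CPM in nuclei and, against a floor of 3 counts per cytoplasmic library, was at least 38.1-fold higher. SNORA73B, a snoRNA that guides RNA processing, was at 4.73, 10 and 4.57 CPM in nuclei and at least 23.0-fold higher. HOXB-AS2 was at least 17.4-fold higher, ENSG00000285338 at least 12.5-fold and PTCSC3 at least 10.7-fold. Most of these lie within or beside other genes: SNORA73B within RCC1 and SNHG3, HOXB-AS2 opposite HOXB3, and ENSG00000285338 across TAF10 and TPP1 on their strand. The strand setting of the counting is not given in the sources used here, so reads of an overlapping precursor cannot be told apart from these RNAs.

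Few non-coding genes were cytoplasmic. ENSG00000272079, a lncRNA of chromosome 16 that overlaps no other gene, was at 2.02, 4.35 and 3.05 CPM in nuclei and 10.9 and 12.3 in cytoplasm, a log2 ratio of -1.90 (SE 0.27, FDR 0.000181). DDX19A-DT was at 1.81, 1.20 and 1.74 against 4.57 and 4.69. For ENSG00000273420, which lies within LRP3 on the same strand, the cytoplasmic libraries differed from each other, at 16.8 and 39.8 CPM, though both exceeded the nuclear 7.30, 5.83 and 9.72. ENSG00000214719 (log2 ratio -1.85, SE 0.49) and ENSG00000256824 (-1.58, SE 0.49) were low in both fractions, and ENSG00000256824 lost its call without RNAi cytoplasmic replicate 1 (-1.01, FDR 0.222).

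RNAi nuclear replicate 2 held most of the nuclear counts of 7SK, U1 and U2 RNA, and the direction of 7SK depended on that library. RN7SK, which holds the elongation factor P-TEFb inactive, was at 5.56, 139.2 and 5.44 CPM in nuclei and 10.8 and 14.6 in cytoplasm. Without RNAi nuclear replicate 2 its log2 ratio was -1.20 in place of 1.97 (FDR 0.165 with all libraries), and 2.51 without nuclear replicate 1 or 3. RNU2-2P, a U2 gene, was at 0.695, 20 and 1.31 CPM in nuclei, and RNU1-1, a U1 gene, at 0.417, 9.17 and 0.870 (FDR 0.120 without RNAi cytoplasmic replicate 1). All 8 snRNA genes were called nuclear at FDR under 0.1, but 7 of them are U1 copies that share 1 estimated value, and each had under 10 counts in both cytoplasmic libraries. RN7SL2, the RNA of the signal recognition particle, was at 24.0, 38.1 and 23.6 CPM in nuclei against 12.8 and 14.1. The libraries were made with an mRNA-seq kit that selects polyadenylated RNA, and these RNAs lack a poly(A) tail.

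Few mitochondrially encoded RNAs passed the test. Of 29 tested, 7 (24.1%, beside 33.3% of all genes) were higher in the nuclear and 3 (10.3%, beside 25.1%) in the cytoplasmic fraction, with a median log2 ratio of 0.29, and library-size scaling alone gave 12 and 0. MT-CO3, a cytochrome oxidase subunit with the highest TPM, was at 37439.6, 22977 and 28248 CPM in nuclei and 15070.7 and 31923 in cytoplasm, ranges that overlap (log2 ratio 0.33, SE 0.33, FDR 0.399). MT-CO1 was at 64671, 40427 and 47214 CPM against 25359 and 35891. MT-ND2 was at 5287, 3252 and 3998 against 4840.1 and 9317, with overlapping ranges although it passed the test in the cytoplasmic direction (log2 ratio -0.76, FDR 0.0485). MT-TD, a mitochondrial tRNA, stayed under 2 CPM in every library. Single libraries decided these calls. Without RNAi cytoplasmic replicate 1 neither MT-TD (0.74, FDR 0.263) nor MT-CO1 (0.50, FDR 0.330) passed, and without RNAi cytoplasmic replicate 2 MT-ND2 (-0.18, FDR 0.653) did not and MT-CO3 did (1.00, FDR 0.0381). MT-CO1 also fell short without RNAi nuclear replicate 1 (0.52, FDR 0.212), and MT-ND2 without RNAi nuclear replicate 2 or 3 (-0.61 and -0.73).

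The 10 protein-coding genes with the largest nuclear ratios had differing known roles. LUC7L3, a U1-associated splicing protein at chr17:48796926-48833580, was at 61.6, 64.7 and 57.4 CPM in nuclei and 1.78 and 3.27 in cytoplasm, a log2 ratio of 4.65 (SE 0.20, FDR 4.01e-07). NKTR, a cyclophilin with an arginine-serine-rich tail, was at 61.0, 54.9 and 52.2 against 2.09 and 2.95 (4.50, SE 0.20). TTN, which encodes the sarcomere protein titin, was at 37.7, 37.2 and 36.5 CPM in nuclei and 1.71 and 1.31 in cytoplasm. Its log2 ratio was 4.59 (SE 0.32). In TPM, which divides by transcript length, TTN was at 0.76, 0.925 and 1.14 in nuclei and 0.0171 and 0.0117 in cytoplasm. The muscle markers DES and MYH7 were at or below 1.75 TPM, so TTN was no higher than that bound. BLTP1, a bridge-like lipid transfer protein, was at 17.1, 15.3 and 13.9 CPM against 0.698 and 0.218 (4.94, SE 0.62). For each of these the lowest nuclear library was far above the higher cytoplasmic one, and groups that do not overlap were a condition of the choice.

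Other genes of that end are less certain because near-identical copies share reads. SLC35E2B, a member of the nucleotide-sugar transporter family with a close paralog, had 409 counts in nuclei and 2 in cytoplasm, a ratio of 115.7 (exact 95% counting interval 31.8 to 959.0). GOLGA8A was at 30.0, 13.2 and 18.1 CPM in nuclei and 1.01 and 0 in cytoplasm, and belongs to a family of nearly identical golgins. SPDYE2 and SPDYE2B are copies with the same values in every library, 17.2, 14.3 and 15.5 CPM against 0.853 and 0.436, so they count as 1 measurement. ERVW-1, the retroviral envelope gene of syncytin-1, was at 26.1, 23.1 and 21.0 against 0.620 and 1.09 (log2 ratio 4.82, SE 0.27). ENSG00000267952 is annotated across TEX45 and ZNF358 on their strand.

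Several of the largest cytoplasmic ratios belonged to abundant mRNAs. PPDPF, a small protein named for pancreatic progenitors, at chr20:62152118-62153559, was at 300.0, 259.7 and 264.7 CPM in nuclei and 1657 and 1982 in cytoplasm, a log2 ratio of -2.73 (SE 0.13, FDR 5.14e-07). FTH1, the ferritin heavy chain, was at 889.7, 890.0 and 937.5 against 4865 and 6068 (-2.59, SE 0.13). CCNI, a cyclin I mRNA, was at 120.2, 134.9 and 118.0 against 770.9 and 669.4. YBX1, a cold-shock protein that packages mRNA, was at 368.6, 386.1 and 405.9 against 1486 and 1872 (-2.12, SE 0.14). In all of them the cytoplasmic libraries stood 3 or more times above every nuclear one. The remaining genes of that end were UTF1, RNF208, SORBS3, RCOR1, VAMP3 and GAMT, with log2 ratios from -2.15 to -1.80. Among protein-coding genes of at least 10 CPM in the higher fraction, the 10 cytoplasmic genes ran from -2.73 to -1.80 and the 10 nuclear ones from 4.50 to 6.69.

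**Figure D2:**
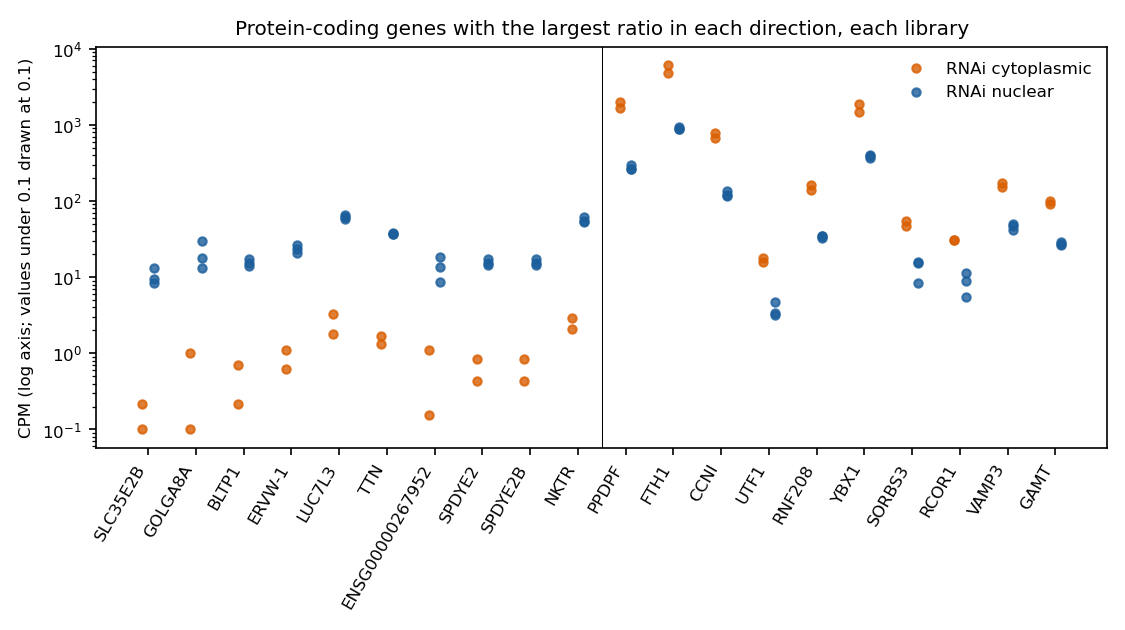
CPM of each RNAi library (log axis, orange cytoplasmic, blue nuclear) for the 10 protein-coding genes with the largest ratio in each direction; values under 0.1 CPM are drawn at 0.1. Nuclear genes on the left sit between 8.41 and 64.7 CPM in nuclei, and FTH1 reaches 6068 CPM in cytoplasm.

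mRNAs of the ribosome and of translation factors were mostly cytoplasmic, as the plot of gene lists shows. Of 84 cytosolic ribosomal protein genes, 68 (81.0%, beside 25.1% of all genes) were higher in the cytoplasm and 3 (3.57%, beside 33.3%) in the nucleus. Their median log2 ratio was -0.86. RPL12, the gene of that list with the largest difference, was at 347.9, 306.9 and 316.2 CPM in nuclei and 976.8 and 971.2 in cytoplasm (log2 ratio -1.59, SE 0.13). Of 60 translation initiation and elongation factor genes 33 (55.0%) were higher in the cytoplasm and 4 (6.67%) in the nucleus. EEF2, the ribosomal translocase, was at 4449, 4658 and 4657 CPM in nuclei and 12728 and 12099 in cytoplasm (-1.44, SE 0.10), and its relative EEF1A2 had a log2 ratio of -1.54 (SE 0.10). Nuclear and cytoplasmic libraries did not overlap for any of these 3 genes.

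Mitochondrial proteins made on cytosolic ribosomes also had more cytoplasmic than nuclear calls. Of 76 mitochondrial ribosomal protein genes 46 (60.5%, beside 25.1% of all genes) were higher in the cytoplasm and none in the nucleus. Their median was -0.59. MRPL12 was at 230.1, 290.3 and 241.6 CPM in nuclei and 571.7 and 662.5 in cytoplasm (-1.28, SE 0.15), and MRPS2 had a log2 ratio of -0.86 (SE 0.12). Of 76 nuclear-encoded respiratory chain genes 37 (48.7%) were higher in the cytoplasm and 5 in the nucleus, or 15 and 6 with library-size scaling alone. ATP5PF, a coupling subunit of ATP synthase, was at 57.1, 62.7 and 63.7 against 146.4 and 157.2, while COX8A, the member with the highest TPM, had overlapping ranges (-0.18, SE 0.16, FDR 0.362). Proteasome subunits counted 15 (44.1%) cytoplasmic and 3 (8.82%, beside 33.3% of all genes) nuclear of 34. PSMB6 was at -0.88 (SE 0.15) and PSMD8 at -0.70 (SE 0.11). With library-size scaling alone the proteasome calls became 2 cytoplasmic and 3 nuclear, and the cytosolic ribosomal protein calls 45 and 4.

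Chaperone, stress, splicing-core and replication lists held more cytoplasmic than nuclear calls, and the balance of several depended on the scaling. Of 14 heat shock protein genes 8 (57.1%, beside 25.1% of all genes) were higher in the cytoplasm and none in the nucleus. The 8 include HSPB1, a small chaperone, at 368.5, 356.2 and 372.7 CPM in nuclei against 862.6 and 874.3 (-1.25, SE 0.10). Among 21 targets of the integrated stress response 10 (47.6%) were cytoplasmic and 5 (23.8%, beside 33.3% of all genes) nuclear. ATF4, the factor that drives that response, was at 1449, 1336 and 1367 CPM against 2752.6 and 2494.5, MTHFD2 had a log2 ratio of -1.12 (SE 0.16), and SLC3A2, the heavy chain of amino acid transporters, was nuclear at 1.24 (SE 0.11). Of 44 core spliceosome genes 23 (52.3%) were cytoplasmic and 8 (18.2%) nuclear, and of 44 DNA replication genes 21 (47.7%) and 4 (9.09%). With library-size scaling alone the core spliceosome list had 9 cytoplasmic and 10 nuclear calls, and the DNA replication list 9 and 8. SF3A2 was at 219.4, 219.6 and 226.5 against 546.2 and 648.5 (-1.43, SE 0.11), SNRPA had a ratio of -0.52 (SE 0.10; -0.47 without RNAi cytoplasmic replicate 2, under the fold threshold), and CDT1, a licensing factor, was at 420.0, 402.4 and 392.6 against 1151.5 and 1124 (-1.49, SE 0.09). Among 20 hnRNP genes 6 were cytoplasmic and 1 nuclear, a share of 30.0% beside 25.1% of all genes. HNRNPUL1 led them at -1.21 (SE 0.09), and HNRNPA1 was at -0.88 (SE 0.08).

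**Figure D3:**
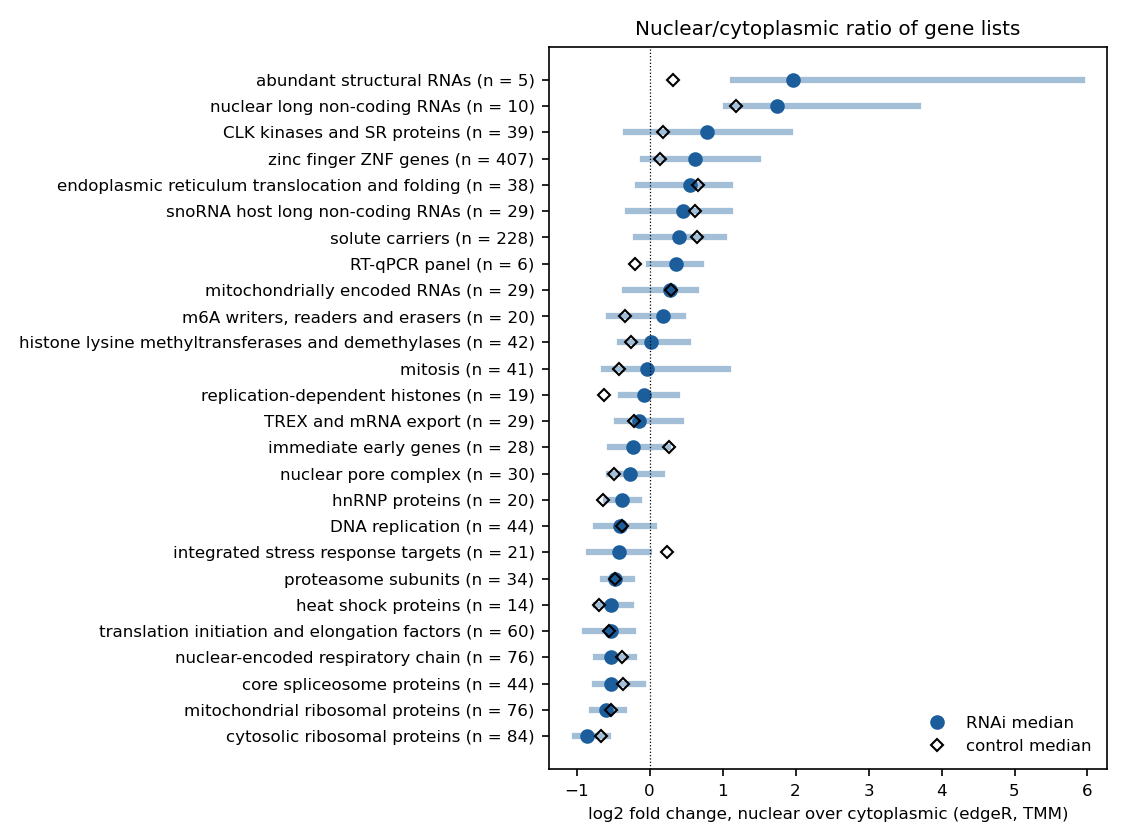
Median log2 nuclear/cytoplasmic ratio of 26 gene lists in RNAi cells (blue points, bars span the quartiles over the n genes tested) and in control cells (open diamonds, 1 cytoplasmic library). Cytosolic ribosomal protein genes have the lowest RNAi median, -0.86, and CLK kinases and SR proteins have one of 0.78 beside 0.19 in control.

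mRNAs of the endoplasmic reticulum were mostly nuclear by this fractionation. Of 38 genes of translocation and protein folding 21 (55.3%, beside 33.3% of all genes) were higher in the nuclear fraction. The cytoplasmic fraction had 4 (10.5%, beside 25.1%), and the median was 0.55. HSP90B1, the resident HSP90 chaperone, was at 125.4, 107.8 and 124.2 CPM in nuclei and 21.0 and 23.7 in cytoplasm (log2 ratio 2.42, SE 0.12, FDR 5.19e-07). HSPA5, the chaperone BiP, was at 546.6, 487.4 and 499.1 against 185.0 and 157.0. CALR, a calcium-binding lectin chaperone, had a log2 ratio of 1.06 (SE 0.11) and SEC61A1, the translocation channel, one of 0.72 (SE 0.12). KDELR1, a retrieval receptor and the member with the highest TPM, did not pass (-0.16, SE 0.11, FDR 0.226). Solute carriers, which are membrane transporters, counted 95 (41.7%) nuclear and 34 (14.9%) cytoplasmic of 228. That list also takes in carriers of the mitochondrial membrane. SLC25A5, a mitochondrial carrier, was at 646.9, 730.5 and 692.4 CPM in nuclei against 1393 and 1240.4. SLC9A4 had 0 counts in cytoplasm and was at least 5.23-fold higher in nuclei. The share of these mRNAs on membranes attached to nuclei was not tested.

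Of 39 CLK kinase, SR protein and related genes 21 (53.8%, beside 33.3% of all genes) were higher in the nucleus and 2 in the cytoplasm. The list median was 0.78. SRRM2, a scaffold of nuclear speckles, was at 8581, 8675.5 and 8392.5 CPM in nuclei and 2335 and 1860.5 in cytoplasm, a log2 ratio of 2.03 (SE 0.17). CLK1 and CLK4, kinases of SR proteins, had log2 ratios of 2.70 (SE 0.22) and 3.09 (SE 0.35), with CLK1 at 13.3, 13.9 and 11.6 CPM against 2.17 and 1.75. SRSF11 was at 77.6, 78.5 and 69.5 against 10.5 and 9.38. SRSF3, a founding SR protein, lay in the cytoplasm at 136.2, 171.3 and 162.1 CPM in nuclei against 274.6 and 266.5. The sign for SRSF3 turned in limma fits of TPM (0.19, adjusted p 0.447). TPM is divided by transcript length, and those fits used no TMM scaling. The cause of the turn was not tested.

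Zinc finger genes with ZNF symbols, most of them DNA-binding factors, counted 201 (49.4%) nuclear and 50 (12.3%) cytoplasmic of 407, with a median of 0.62. ZNF300 had 0 counts in cytoplasm and was at least 6.39-fold higher in nuclei, while ZNF703, the member with the highest TPM, was cytoplasmic, at 2232, 2649 and 2459 CPM in nuclei against 4417.5 and 5047. Of 42 histone lysine methyltransferase and demethylase genes 11 (26.2%, beside 33.3% of all genes) were nuclear and 7 (16.7%, beside 25.1%) cytoplasmic. KMT2A was at 176.9, 147.7 and 160.0 CPM in nuclei and 24.3 and 25.9 in cytoplasm (2.69, SE 0.20), SETD2 had a ratio of 2.41 (SE 0.17), and SETD1A one of -0.43 (SE 0.09) that missed the fold threshold. Among 41 mitosis genes 16 were nuclear and 13 cytoplasmic, shares of 39.0% and 31.7% near the 33.3% and 25.1% of all genes, and library-size scaling alone gave 18 and 4. ASPM, a spindle-pole protein, was at 21.7, 21.7 and 18.7 CPM in nuclei and 1.71 and 0.873 in cytoplasm (3.94, SE 0.32), CENPF had a log2 ratio of 3.70 (SE 0.17) and MKI67 one of 2.62 (SE 0.30). The cyclin CCNA2 was at -0.94 (SE 0.13) and UBE2C, an E2 enzyme of the anaphase-promoting complex, at -0.67 (SE 0.14), or -0.43 without RNAi cytoplasmic replicate 2, under the fold threshold.

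Immediate early, histone and nuclear pore genes had no common side. Among 28 immediate early genes 5 (17.9%, beside 33.3% of all genes) were nuclear and 8 (28.6%, near the 25.1% of all genes) cytoplasmic. Library-size scaling alone gave 8 and 2. EGR1 was at 210.2, 239.1 and 221.0 CPM in nuclei against 64.2 and 47.1 (2.00, SE 0.35), FOS had a log2 ratio of 0.83 (SE 0.34, FDR 0.0505), MYC one of -0.94 (SE 0.19) and KLF2 one of -0.96 (SE 0.37). FOS lost its call without RNAi cytoplasmic replicate 2 (0.60, FDR 0.249) or RNAi nuclear replicate 1 (0.74, FDR 0.126), and KLF2 without RNAi cytoplasmic replicate 2 (-0.68, FDR 0.247) or RNAi nuclear replicate 2 or 3 (-0.79 in both). Of 19 replication-dependent histone genes, whose mRNAs lack a poly(A) tail, 1 (5.26%) was nuclear and 2 (10.5%) cytoplasmic. H1-4 was at 3.54, 11.9 and 3.77 CPM in nuclei against 16.0 and 14.1 (FDR 0.101 without RNAi cytoplasmic replicate 1), and H1-2 had overlapping ranges. Of 30 nuclear pore genes 4 (13.3%) were nuclear and 9 (30.0%, near the share of all genes) cytoplasmic (8 and 2 with library-size scaling alone). NUP210, the member with the highest TPM, was at 1209.5, 1177 and 1149 CPM in nuclei against 509.5 and 410.8 (1.36, SE 0.20), the large basket protein TPR had a ratio of 2.47 (SE 0.14) and RANBP2 one of 2.97 (SE 0.40), and SEH1L was cytoplasmic at -0.81 (SE 0.13). With library-size scaling alone the median turned from negative to positive for the mitosis, histone, immediate early, nuclear pore and export lists.

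The m6A machinery itself was split. Of 20 writer, reader and eraser genes 3 were nuclear (15.0%, beside 33.3% of all genes) and 6 cytoplasmic (30.0%, beside 25.1%), a balance that library-size scaling alone turned to 8 and 2. ZC3H13, a large subunit of the writer complex, was at 44.7, 35.7 and 41.6 CPM in nuclei and 4.11 and 4.04 in cytoplasm (log2 ratio 3.32, SE 0.38). YTHDC2, a helicase reader, had a log2 ratio of 1.63 (SE 0.19), and the depleted VIRMA one of 0.82 (SE 0.27, FDR 0.0220). WTAP was at 0.31 (SE 0.15, FDR 0.102). The ratios of VIRMA and WTAP also hold the larger estimated loss of their mRNA from cytoplasm than from nuclei. METTL3, the catalytic subunit, was at 0.48 (SE 0.13), under the fold threshold. METTL3 passed that threshold without RNAi cytoplasmic replicate 2 (0.57) or RNAi nuclear replicate 2 (0.55). The demethylase ALKBH5 was at 355.8, 470.1 and 399.9 CPM in nuclei against 804.7 and 890.9 (-1.05, SE 0.12) and had the highest TPM of the list. In the export list 7 of 29 genes were nuclear and 6 cytoplasmic, shares of 24.1% and 20.7% that lie below those of all genes, and library-size scaling alone gave 10 and 3. THOC2, the large scaffold of the THO complex, was at 70.0, 66.5 and 60.1 CPM in nuclei and 7.75 and 8.62 in cytoplasm (3.00, SE 0.14, FDR 4.46e-07), THOC1 had a log2 ratio of 2.07 (SE 0.31), and DDX39B, the export helicase, was at 304.6, 297.6 and 274.8 against 94.8 and 80.7. NXF1, the mRNA export receptor, was at 221.1, 263.2 and 239.2 against 120.7 and 144.6 (0.86, SE 0.18). The adaptor ALYREF had overlapping ranges (-0.44, SE 0.21, FDR 0.0919), and passed without RNAi cytoplasmic replicate 1 (-0.74) or RNAi nuclear replicate 3 (-0.54).

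The 6 mRNAs that the study followed by RT-qPCR also parted. DICER1, the enzyme that cuts pre-miRNAs, was at 45.7, 47.1 and 49.7 CPM in nuclei and 25.4 and 33.5 in cytoplasm, a log2 ratio of 0.70 (SE 0.16, FDR 0.00353). PTPN12, a tyrosine phosphatase, was at 10.2, 7.22 and 8.41 against 6.20 and 4.26 (0.71, SE 0.22, FDR 0.0153), a call lost without RNAi cytoplasmic replicate 2 (0.51, FDR 0.106). MC1R, the melanocortin receptor, was at 6.81, 5.28 and 5.66 against 1.94 and 0.873 (2.01, SE 0.31). GSTP1, a glutathione transferase, was cytoplasmic at 330.7, 402.4 and 373.4 against 603.5 and 716.4 (-0.84, SE 0.12). TAF7, a subunit of TFIID (0.04, SE 0.17), and SYMPK, a scaffold of 3′ end processing (-0.02, SE 0.11), had overlapping ranges.

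The main transcript was the one with the highest mean TPM over the 5 RNAi libraries, 3 of them nuclear. Its structure varied with the ratio across the 13316 nuclear-encoded protein-coding genes. By quartile of GC content, from the lowest to the highest, the median log2 ratio was 0.15, -0.08, -0.14 and -0.33. The share of genes higher in the cytoplasm was 22.3% in the lowest and 37.8% in the highest quartile. The Spearman correlation across genes was -0.18, given as a description since genes share libraries. In control cells the medians ran the other way, at -0.52, -0.16, 0.11 and 0.11, with a single cytoplasmic library. Length had no monotonic relation, with medians of 0.00, -0.33, -0.20 and 0.09, and summed intron length gave a correlation of 0.004. The 206 genes with 1 exon in every transcript had a median of -0.09, beside -0.11 for the rest. The 1200 genes whose main transcript was annotated as a retained-intron form had a median of 0.51. Of these, 568 (47.3%, beside 27.0% of all nuclear-encoded protein-coding genes) were nuclear and 198 (16.5%, beside 28.6%) cytoplasmic. The main transcript was chosen from the same libraries, so a form abundant in nuclei was favoured in genes with a nuclear ratio. That link is thus partly built in.

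**Figure D4:**
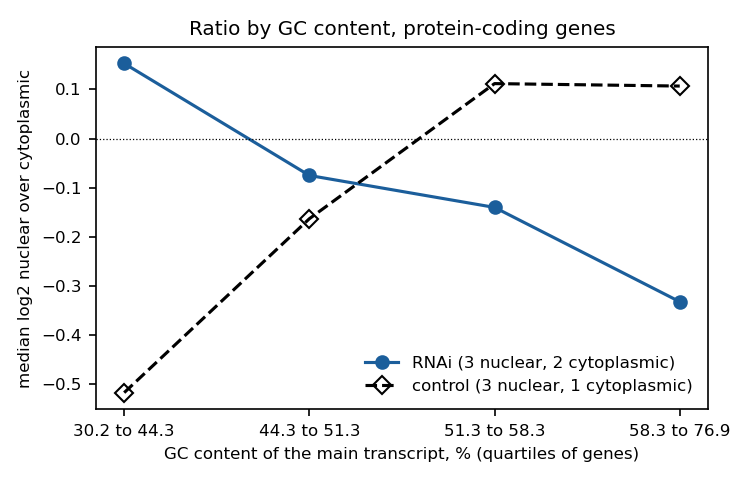
Median log2 nuclear/cytoplasmic ratio of protein-coding genes in quartiles of the GC content of their main transcript, in RNAi (filled) and control cells (open). The RNAi medians go from 0.15 to -0.33 and the control medians from -0.52 to 0.11.

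Transcripts were tested in the same way. Of 42619 transcripts tested 12749 (29.9%) were higher in the nuclear and 6704 (15.7%) in the cytoplasmic fraction. Among 7257 retained-intron transcripts, which keep an intron that another transcript of the gene removes, 4855 were nuclear and 266 cytoplasmic, with a median of 3.06. Protein-coding transcripts had a median of -0.24 over 25762, with 4200 nuclear and 5564 cytoplasmic. Transcripts that are predicted targets of nonsense-mediated decay, a cytoplasmic and translation-bound pathway, had a median of 0.22 over 3164. Retained-intron forms took 12.35%, 11.81% and 12% of the TPM of protein-coding genes in the nuclear libraries and 7.81% and 7.90% in the cytoplasmic libraries, with no overlap. Of the retained-intron transcripts tested, 4417 (60.9%) had under 10 counts in both cytoplasmic libraries, and the 1725 with at least 10 in all 5 had a median of 0.25, against -0.40 for 16448 protein-coding ones. Transcripts of 1 gene share reads, and the uncertainty of that split is not in these p-values, which are therefore too small.

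Within genes, the filter set much of the difference between transcript types. In 3737 genes with both kinds tested, the median ratio of the retained-intron transcripts exceeded that of the protein-coding ones by a median of 2.94. Among transcripts with at least 10 counts in all 5 libraries, a restriction chosen after seeing the data, the excess was 0.55 over 1213 genes, and the retained-intron forms had the higher ratio in 910 of them. For nonsense-mediated decay transcripts the excess was 0.31 over 2194 genes and 0.11 over 987 with that restriction. A test of each transcript's share of its gene (edgeR diffSpliceDGE) called 6389 of 36633 transcripts (17.4%) in 3653 genes at FDR under 0.1. Of the called retained-intron transcripts 3157 had the larger share in the nucleus and 24 in the cytoplasm, under the same filter through the nuclear libraries. The 2574 introns held by a retained-intron transcript called nuclear had a median length of 311 nt and a GC content of 56.3%, beside 724 nt and 51.6% for 13052 other introns of those genes. This is a property of annotated introns, and reads within introns were not counted here.

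DDX17, an RNA helicase that acts in splicing and miRNA processing, differed most in form. As a gene it was at 865.4, 795.1 and 834.7 CPM in nuclei and 353.6 and 331.6 in cytoplasm (log2 ratio 1.28, SE 0.17). The transcript DDX17-201 took 76.0%, 73.5% and 72.4% of the gene's TPM in nuclei and 6.4% and 5.2% in cytoplasm. The fully spliced protein-coding DDX17-202 took 17.9%, 20.7% and 21.6% in nuclei and 85.1% and 90.0% in cytoplasm, so the fractions held nearly opposite forms (edgeR, FDR 1.59e-11 and 1.47e-09). DGCR8, which recognises primary miRNAs, showed DGCR8-209 with a retained intron at 39.0%, 40.1% and 40.9% in nuclei against 12.9% and 15.1%, and DGCR8-201 at 16.7%, 17.5% and 19.7% against 84.3% and 78.5%. OGT, the O-GlcNAc transferase, was chosen after its values were seen: OGT-210 took 33.4%, 39.1% and 35.7% in nuclei and 4.7% and 6.0% in cytoplasm. The OGT gene as a whole was at 257.2, 243.4 and 240.6 CPM in nuclei and 72.4 and 65.5 in cytoplasm.

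The splice sites of the introns these 3 nuclear transcripts keep are shown because they mark what the cytoplasmic form has lost. Each donor is given as 3 exon and 6 intron bases and each acceptor as 20 intron and 3 exon bases, 5′ to 3′ on the gene's strand (GRCh37), with the intron's first and last dinucleotides in capitals. All 3 introns have the usual GT and AG ends.
DDX17 donor: tagGTttgt
DDX17 acceptor: actcatcattgacgtggaAGatg
DGCR8 donor: cggGTaggg
DGCR8 acceptor: tgcaatttcactatccacAGaaa
OGT donor: aagGTaggt
OGT acceptor: tttcattaacccctcctaAGgca
The DDX17 intron (chr22:38884121-38888060, minus strand) is 3940 nt long with a GC content of 40.5%. The OGT intron (chrX:70764486-70767756, plus strand) is 3271 nt long with a GC content of 41.6%. The DGCR8 intron (chr22:20077335-20077498, plus strand) is short, at 164 nt, with a GC content of 50.0%. Both long introns exceed the median of the nuclear-retained introns above.

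The transcript that gained most share in nuclei was annotated as a retained-intron form in 6 of the 10 genes with the largest difference of share. Over all genes, 3157 of the 5634 transcripts called with a larger nuclear share were of that type, so 6 of 10 is near that share. In QTRT1 and DGCR8 the retained-intron form gained only 14.6 and 26.0 points. Their cytoplasmic forms changed by -64.3 and -63.4 points, so other transcripts took up the remainder. FAM216A-202, a retained-intron form, took 48.6%, 55.1% and 50.8% in nuclei and 0.0% in both cytoplasmic libraries. In SAP30L, a subunit of a histone deacetylase complex, SAP30L-204 took 73.5%, 62.9% and 60.8% against 3.1% and 5.5%. The form larger in the cytoplasm, SAP30L-205, is a retained-intron transcript too and did not pass the share test (FDR 0.812), so in SAP30L the annotated type does not separate the forms. In AKAP8L, a nuclear anchoring protein, AKAP8L-206 took 58.5%, 57.2% and 49.9% against 7.5% and 7.8%. For QTRT1, a tRNA-modifying enzyme, the retained form QTRT1-204 had 13.2% to 17.3% in nuclei and at most 1.9% in cytoplasm, while the protein-coding QTRT1-201 went from 90.3% of the cytoplasmic to 26.0% of the nuclear TPM on average.

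Other classes of isoform made up the rest. For KAT2A, a histone acetyltransferase, the decay-predicted KAT2A-202 took 67.1%, 57.3% and 59.7% in nuclei and 11.8% and 11.7% in cytoplasm, in exchange with the protein-coding KAT2A-201. The vitamin D receptor VDR switched between protein-coding forms, with VDR-202 at 60.8%, 54.8% and 82.1% in nuclei and 0.3% and 0.1% in cytoplasm. TYSND1-204, of a peroxisomal protease and without a defined coding sequence, took 79.1%, 74.1% and 72.3% against 17.9% and 13.3%. For POLR2J3, whose near-identical copies make the split uncertain, POLR2J3-217 took 37.9% to 49.1% in nuclei and at most 0.8% in cytoplasm. The shares of these nuclear forms did not overlap between fractions, and the choice of genes asked for that in at least 1 transcript of each. Transcripts were typed by a later annotation than the one quantified, and several named forms differ in length between them. AKAP8L-206 had 796 nt as quantified and 3684 nt in the later annotation, and POLR2J3-217 had 1410 and 4630 nt. Of the forms larger in the cytoplasm, VDR-201 had 4773 and 3404 nt and FAM216A-201 had 1582 and 1101 nt. Some others differed less.

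**Figure D5:**
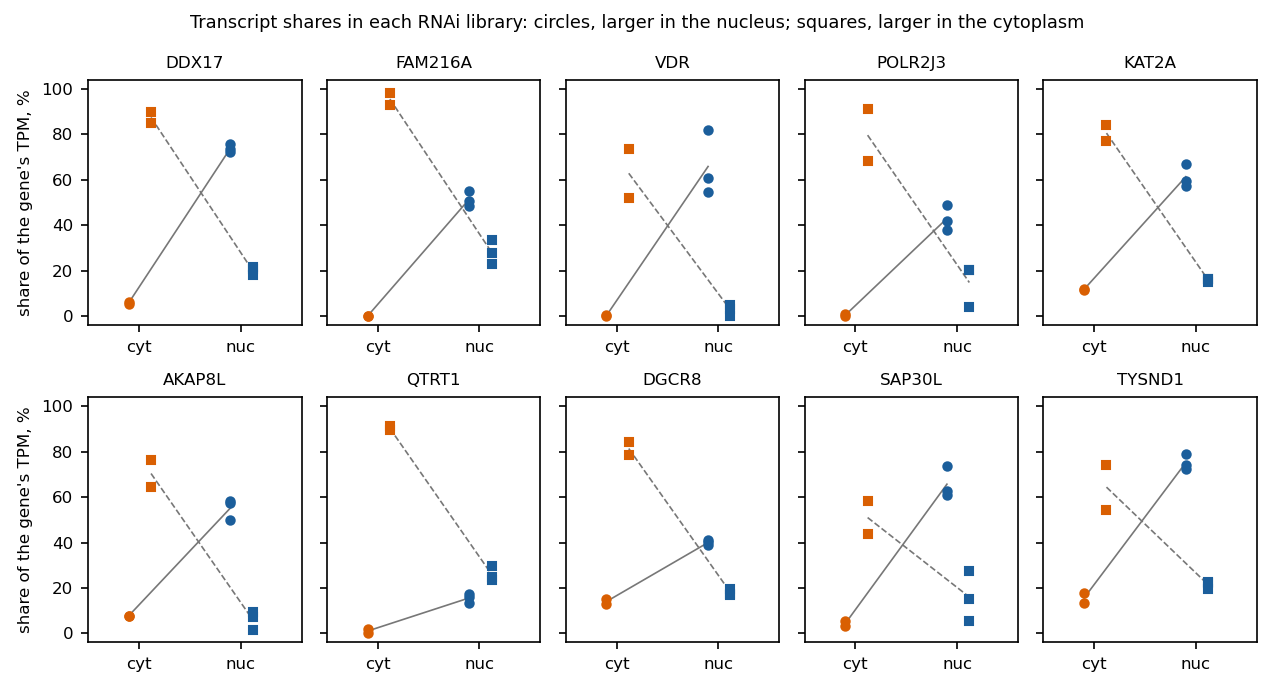
Share of the gene's TPM (percent) in each RNAi cytoplasmic (orange) and nuclear (blue) library for the transcript larger in the nucleus (circles) and the one larger in the cytoplasm (squares) of 10 genes; lines join the means. DDX17-201 goes from 5.8% of the cytoplasmic to 73.9% of the nuclear TPM on average.

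The ratios of RNAi and control cells had a Spearman correlation of 0.725 across 15974 genes, a description over genes that share libraries and are not replicates. In control cells 4477 genes (28%) were nuclear and 3638 (22.8%) cytoplasmic. By the interaction test the ratio was higher in RNAi than in control cells for 1676 genes (10.5%) and lower for 1294 (8.1%). Library-size scaling alone gave 2242 and 163. The number of lower genes was 575 without control nuclear replicate 3, 734 without RNAi cytoplasmic replicate 2 and 720 without RNAi nuclear replicate 3. Among ZNF genes 68 of 407 had a higher ratio in RNAi cells and 9 a lower one. In the mitosis list the numbers were 16 and 1 of 41, in the CLK and SR list 12 and 0 of 39, and among solute carriers 10 and 48 of 228. THOC2 showed the smallest FDR of the named genes, with log2 ratios of 3.00 in RNAi and 0.17 in control cells (FDR of the difference 0.000416). GC content moved with these differences, since its quartile medians ran in opposite directions in RNAi and control cells, and the control ratio rests on 1 cytoplasmic library. The part of either in them was not tested. THOC2 was itself named for its large RNAi ratio, which enters the difference.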

How the data were processed

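RNA of nuclear and cytoplasmic fractions was sequenced from HEK293 cells treated with RNAi or control siRNA. Per the submitters' processing notes, the authors trimmed reads with cutadapt and quantified transcripts (hg19, with non-coding RNA) with Salmon, and deposited estimated counts and TPM for each transcript of each library. Versions and the strand setting are not given in the sources used here. Of 215170 transcripts, 183122 (85.1%) were matched to GENCODE 44 lifted to GRCh37, and their deposited estimated counts were summed to 56347 genes and rounded. The rest were left out.

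Genes or transcripts with at least 10 counts in at least 2 of the 5 RNAi libraries were fitted over all 9 libraries as 4 groups, which share 1 estimate of the spread, with edgeR 4.0.16 (R 4.3.3; TMM, quasi-likelihood test, Benjamini-Hochberg adjustment). A call needed a log2 fold change beyond 0.5 and an FDR under 0.1. Alternatives used limma 3.58.1 on the deposited TPM and DESeq2 1.42.0. A count of 3 equals 0.209 to 0.303 CPM in the RNAi libraries. Counting intervals cover counting error only.

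Named genes were the 10 protein-coding genes (mean of at least 10 CPM in the higher fraction) and the 5 of other classes without pseudogenes (at least 1 CPM) with the largest called ratio in each direction, among those whose fractions did not overlap and whose sign held without any 1 library, the highest-TPM and the largest called member of each list, both targets, the RT-qPCR panel and the 10 genes with the largest difference in a transcript's share (FDR under 0.1, no overlap, at least 5 TPM in each RNAi library, at least 2 transcripts above 10% of the gene). A few genes that these rules or the marker lists name are not reported here. Examples beyond these were chosen after their values were seen. The members and lists were chosen with earlier results of these data known.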

Additional observations from a re-analysis of the deposited data

Results flagged for a closer look

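For 41 of the genes named above, the nuclear/cytoplasmic log2 ratio differed between RNAi and control cells in edgeR's test of that difference (Benjamini-Hochberg FDR under 0.1), with 1 cytoplasmic control library behind every control ratio. Each value below is the RNAi ratio less the control ratio, on the log2 scale. The part of GC content and of that single library in these differences was not tested. Many of these genes were named for a large RNAi ratio, which itself enters the difference. Their choice therefore favours a difference in the direction of that ratio, and its part was not tested.

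Among genes of export and the nuclear pore, the difference was 2.84 for THOC2 (3.00 in RNAi, 0.17 in control cells, FDR 0.000416), 2.35 for THOC1, 3.19 for RANBP2 and 2.32 for TPR. Of these, THOC1 and RANBP2 had negative ratios in control cells, -0.28 and -0.22. Among splicing-associated genes it was 2.12 for LUC7L3, 2.95 for NKTR, 1.85 for SRSF11 and 1.19 for CLK1, and it was -0.55 for SNRPA and -0.61 for SF3A2. In the m6A machinery it was 2.85 for ZC3H13, 1.74 for YTHDC2 and 0.89 for WTAP, whose ratio was 0.31 in RNAi and -0.58 in control cells. WTAP was a target of the siRNAs, so its difference also holds the unequal loss of its mRNA between fractions. In the RT-qPCR panel the difference was 1.34 for DICER1, 1.39 for PTPN12 and -0.80 for GSTP1. The ratios of DICER1 and PTPN12 were negative in control cells, -0.65 and -0.68.

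For mitosis and chromatin genes the difference was 2.99 for ASPM, 2.17 for CENPF, 2.00 for MKI67 and 2.08 for SETD2, and for the licensing factor CDT1 it was -1.11. Among lncRNAs it was 1.32 for MALAT1, 0.84 for NEAT1 and 1.58 for KCNQ1OT1. For the large nuclear ratios it was 5.89 for SLC35E2B, 4.41 for BLTP1, 2.27 for TTN and 1.35 for ERVW-1.

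A more cytoplasmic ratio in RNAi cells was found for FTH1 (-0.63), RNF208 (-0.68), GAMT (-0.94), MRPL12 (-0.71), COX8A (-0.82), EEF2 (-0.76), EEF1A2 (-1.08) and HSPB1 (-0.63). Of the endoplasmic reticulum and transporter genes, HSP90B1 differed by 1.00 and SLC3A2 by -0.95. ENSG00000290690 (7.06), HOXB-AS2 (5.33) and SLC9A4 (5.06) had no counts in RNAi cytoplasm, so these fitted values depend on the prior count and are no bounds.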

How the results depend on the processing

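Cytoplasmic calls moved more across settings than nuclear ones at the gene level. Genes higher in the nucleus and in the cytoplasm numbered 5327 and 4013, and leaving out 1 library at a time gave 4915 to 5530 and 3486 to 4056. Only library size as scaling left 2088 cytoplasmic genes and 3734 transcripts, limma on log2(TPM + 1) 1221 and 3392, limma on log2(TPM + 0.1) 1287 and 3162, and thresholds of 1 and 0.05 left 1021 and 2723. At least 10 counts in every RNAi library, a filter that tests fewer genes, gave 3435 nuclear and 2587 cytoplasmic genes and 4428 and 3013 transcripts. The replicate block gave 5310 and 4003 genes. Deviations of same-numbered RNAi libraries correlated at 0.117 and 0.051, so the numbers were not taken to pair the samples. Transcripts with a changed share numbered 11230 with limma diffSplice, of which 4566 were shared with the 6389. The ratio was higher in RNAi cells for 1081 genes with a transcript length offset, and lower for 730 with it, 163 with library size alone and 1954 with the replicate block, and leaving out 1 library gave 575 to 1579 lower. The excess of the lncRNA median, 1.53, was 1.82 with no filter, 0.45 with counts in every library, 1.40 with the length offset, 0.45 and 1.19 with limma at pseudocounts of 1 and 0.1, and 1.51 to 1.61 without 1 library. Of 2524 values of 117 named genes under these settings, 60 lost and 27 gained a call and 3 turned sign: RN7SK was -1.20 without RNAi nuclear replicate 2 and 2.51 without the others, and SRSF3 was 0.19 in both limma fits. The causes were not tested.

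Limits are few libraries, a single control cytoplasmic one, no added RNA of known amount, and shared reads between overlapping genes, copies and isoforms. A gene under 3 counts in a fraction, 0.209 to 0.303 CPM, cannot be told from absence.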

Other observations

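Further classes held few tested genes. Antisense RNA genes had a median log2 ratio of 1.74, with 6 of 10 higher in the nucleus and 1 in the cytoplasm, and lincRNA genes had 20 and 2 of 28. Mitochondrial tRNA genes had a median of 0.51. Of 14 tested, 5 were nuclear (35.7%, near the 33.3% of all genes) and 1 cytoplasmic (7.14%, beside 25.1%). Genes whose main transcript is a predicted target of nonsense-mediated decay numbered 666 and had a median of 0.07. The 1172 genes whose main transcript has no defined coding sequence had a median of 0.29. In both sets the main transcript was chosen by TPM in the same RNAi libraries, which can build in part of such a link. The introns held in nuclear retained-intron transcripts started with GTGAGT in 16.05% of cases and with GTAAGT in 8.74%, beside 15.99% and 9.56% of other introns of those genes.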
